A study of Mus musculus with 2 samples.

Results

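Type I interferon-stimulated genes, the genes that a cell switches on after sensing interferon alpha or beta, were followed through every class of immune cell that a sort for the leukocyte marker CD45 and the surface protein JAML took from mouse tumours. The set was a list of 37 genes chosen by name, and all 37 are among the 15416 genes of the deposited matrix. The rule uses no measured value, but the list was drawn up with earlier results of these data known. The cells came from 3 mice, told apart by hashtag antibodies, and were read as 1 pooled droplet library. All 3 hashtag names carry B16F10, a mouse melanoma line, and an isotype control, so there was 1 experimental group and no treated group to compare. Strain, sex, age and the day of collection are not given in the sources used here. Levels are given for the 16 subclusters of the deposited annotation, with subcluster 15, a group of 44 cells, as the reference.

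Type I interferons bind the IFNAR1 and IFNAR2 receptor chains, which work through the kinases JAK1 and TYK2. A complex that includes the STAT2 and IRF9 proteins then binds a short DNA element, the interferon-stimulated response element, in the promoters of target genes. The targets include antiviral effectors, sensors of viral nucleic acid, further transcription factors and proteins that restrain the signal. In tumours, this pathway is known for its part in the priming of T cells by dendritic cells, and plasmacytoid dendritic cells are known as strong producers of type I interferon.

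The matrix held 5976 cells with a median of 14439 unique molecular identifiers (UMIs, counts of single RNA molecules), and 5968 cells carried a hashtag. Subclusters differed in depth, from a median of 8550 UMIs in subcluster 1 to 33710 in subcluster 11. Marker genes placed subclusters 1, 7 and 10 among CD8 T-like cells with memory genes, 5, 8 and 14 among CD8 T-like cells with the exhaustion gene Pdcd1,  0 and 9 among plasmacytoid-like dendritic cells (pDC), 6 and 11 among type 1 conventional dendritic-like cells (cDC1), 4 among type 2 (cDC2), 12 among mature dendritic-like cells and 2 among macrophage-like cells. Subcluster 3 held all 5 NK markers together with Cd3d and Trbc2, and by the gates described further on 143 of its 632 cells were CD8 T cells, 297 other T cells and 76 NK cells, so it is called by its number. In subcluster 10, 2 of the 5 T-cell markers and 4 of the 5 memory genes stood out. Subclusters 8, 11 and 14 also held genes of dividing cells, and subcluster 13 was left unnamed because Tcf4 was the sole pDC marker that stood out in it. The samples are labelled as T cells, but 8 of the 16 subclusters were dendritic-like, macrophage-like or of the Siglech cluster.

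The promoters show what many members have in common at the DNA level, and 28 of the 37 had a window in the RefSeq table (build GRCm38.p6), from 250 bases before to 50 bases after the start of the gene. The letters GAAA, any 2 bases and again GAAA, the core of the response element, were searched on both strands, and 14 of the 28 members (50%) held them against 1079 of 27025 genes with a window (3.99%). In 11 of the 14 a match lay before the start, and in 3 of them (Ifih1, Ddx58 and Eif2ak2) it lay after the start. The longer form with CT directly after these letters, which contains the shorter one, was in 8 members (28.6%) and in 82 genes (0.303%). The stretches below are printed 5′ to 3′ on the strand of the gene, with the matches in capitals. They cover Isg15 and Ifit1, which were highest in subcluster 15, the near-identical pair Ifit3 and Ifit3b, and 3 members that were highest elsewhere (Bst2, Stat2 and Oas1a). A match read from the other strand appears as TTTC, 2 bases and TTTC.
Isg15: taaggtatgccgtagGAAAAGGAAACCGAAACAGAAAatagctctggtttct
Ifit1: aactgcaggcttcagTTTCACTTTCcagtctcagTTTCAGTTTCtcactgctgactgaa
Ifit3: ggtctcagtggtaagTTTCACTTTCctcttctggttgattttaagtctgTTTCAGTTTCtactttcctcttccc
Ifit3b: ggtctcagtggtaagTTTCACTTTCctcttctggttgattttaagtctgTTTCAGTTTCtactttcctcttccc
Bst2: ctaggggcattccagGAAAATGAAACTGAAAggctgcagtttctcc
Stat2: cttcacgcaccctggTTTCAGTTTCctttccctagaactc
Oas1a: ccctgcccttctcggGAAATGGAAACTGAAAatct
The Isg15 stretch lies at chr4:156200860-156200911 on the minus strand, and its 3 matches overlap. The Ifit1 stretch lies at chr19:34640770-34640828 on the plus strand, and the Ifit3 and Ifit3b stretches lie at chr19:34583358-34583431 on the plus strand and chr19:34607754-34607827 on the plus strand. The Ifit3 and Ifit3b stretches are the same letter for letter, but they lie before the start of the gene and say nothing about the reads. Reads of close gene copies such as this pair may have been lost or misassigned, so the separate values are uncertain. The same holds for the Oas1, Phf11 and Trim30 families, which have several close copies. The Bst2 stretch lies at chr8:71537572-71537617 on the minus strand, that of Stat2 at chr10:128270261-128270300 on the plus strand and that of Oas1a at chr5:120907526-120907560 on the minus strand. Bst2 and Stat2 thus hold the letters too, although subcluster 15 was not where they were highest. Oasl2, Ifi44 and Phf11d were also highest elsewhere, and their windows held no match. Nor did the windows of Isg20, Ifit2, Irf7 and Cmpk2, which were highest in subcluster 15. A match describes these letters and is not a measured binding site.

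Across the subclusters, the set was highest in subcluster 15, then in the macrophage-like subcluster 2 and the cDC2-like subcluster 4. By the mean of the mice it was lowest in the Pdcd1-side subclusters. The level of the set is the mean over the 37 genes of log2(CPM + 1), where CPM is a gene's UMIs per 1000000 UMIs summed over the cells of 1 mouse and subcluster. It was 8.24 and 8.30 in mice 2 and 3 in subcluster 15 (8.27 ± 0.04, SD, n = 2). Mouse 1 had 9 cells there, under the minimum of 10, and its value was 7.96. Subcluster 2 followed with 6.77, 6.86 and 6.49 in mice 1 to 3, and subcluster 4 with 6.57, 6.44 and 6.39. These 2 overlapped with each other and with no other subcluster. Subcluster 1 came next with 5.64, 5.75 and 5.60, overlapping with its neighbour 12 (5.52, 6.07 and 5.13). Subcluster 5 was the lowest at 4.42, 4.06 and 3.92, and it overlapped with subcluster 8 (4.29, 4.52 and 4.79). Mouse 1 was the highest in 8 of the 14 subclusters with 3 mice and mouse 3 the lowest in 11, with a range between mice of 0.15 to 0.94.

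**Figure D1:**
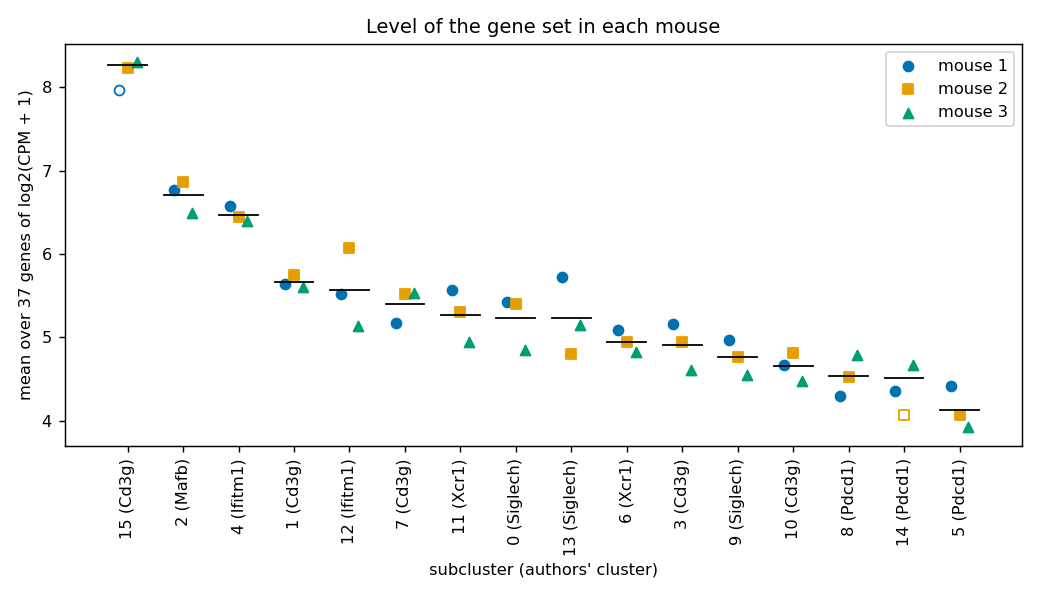
Mean over the 37 genes of log2(CPM + 1) for each mouse (symbols) and subcluster, with the mean of the mice as a bar. Open symbols have under 10 cells and are left out of the mean. Subcluster 15 stands at 8.27, above subclusters 2 and 4 at 6.71 and 6.47, while subcluster 5 lies at 4.13.

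Subcluster 15 was the highest of the 16 for 31 members. The other 6 were led by other cells: Oasl2, Oas1a and Phf11d by subcluster 2, Ifi44 and Bst2 by the pDC-like subcluster 0, and Stat2 by the pDC-like subcluster 9. The clusters rest on the expressed genes of these cells, so these differences are a description and have no test. Bst2, which encodes tetherin, a protein that holds budding virus at the membrane, had 5392, 5199 and 5260.1 CPM in mice 1 to 3 in subcluster 0. It had 1427 and 1453 CPM in mice 2 and 3 in subcluster 15. In subcluster 1 it had 347, 374 and 305 CPM. Bst2 was thus highest in the pDC-like cells in every mouse, and subcluster 15 stood above subcluster 1. The median member had 35.8% of its subcluster 15 level in subcluster 2, 28.2% in subcluster 4, 18.4% in subcluster 1, 9.90% in subcluster 0 and 7.15% in subcluster 5.

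**Figure D2:**
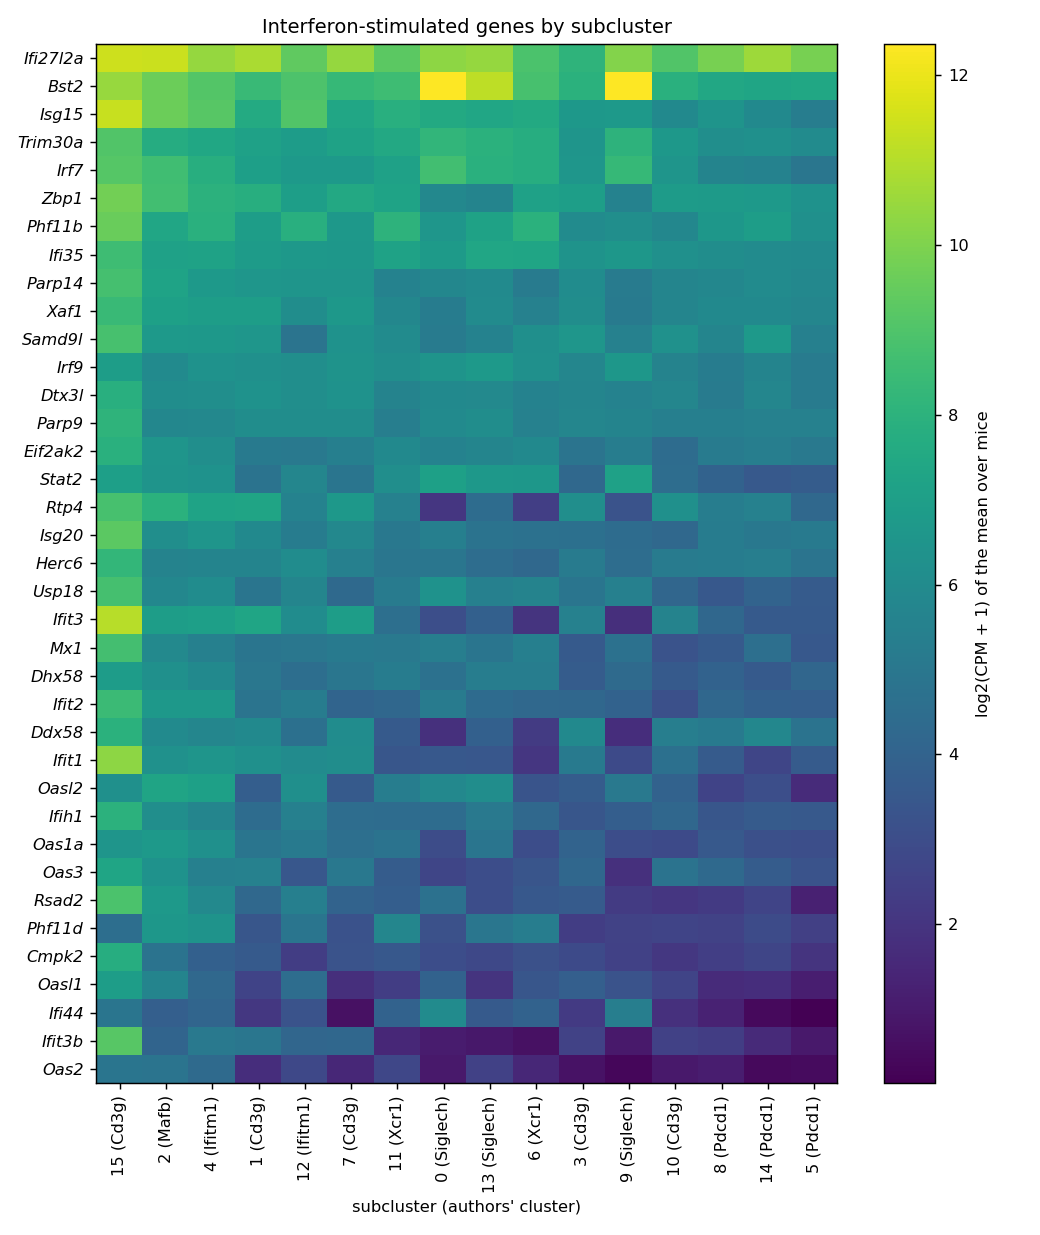
Level of each gene (rows) in each subcluster (columns), as log2 of the mean CPM over mice plus 1, with subclusters in order of the mean over the 37 genes. Subcluster 15 is the highest column for 31 genes, and Bst2 stands out in subclusters 0 and 9.

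Of the 44 cells of subcluster 15, 41 passed a T-cell gate of Cd3 transcripts and 33 of these were CD8 T cells by transcript. The gates are described with the tests further on. The macrophage and cDC2 genes of the subcluster lay almost wholly in the other 3 cells: the T-gate cells held 0 of its 42 C1qa UMIs, 2 of its 99 Apoe UMIs and 2 of its 65 Cd209a UMIs. The mean difference of the set and the level of Cxcl10 are therefore also given for the T-gate cells alone. Levels of single members are over all cells of the subcluster. The T-gate cells held 7 of its 20 Phf11d UMIs, and 3 cells held 11 of its 12 Ifi44 UMIs. Cd3e had 497 CPM over the 44 cells and Cd8a 495 CPM, against 644 and 585 CPM in subclusters 1, 7 and 10 together, the CD8 T-like cells of the same authors' cluster (Cd3g). Siglech, a pDC gene taken as a measure of stray RNA, had a UMI in 9.09% of the cells of subcluster 15 (median 8838.5 UMIs) and in 5.69% of the cells of subclusters 1, 7 and 10.

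Set against subclusters 1, 7 and 10, the 37 members averaged 2.72 ± 0.11 higher on the log2(CPM + 1) scale in subcluster 15 (SD over mice 2 and 3, with 2.64 and 2.79). With the T-gate cells alone the difference was 2.74, but there the minimum was 5 cells and mouse 1 was included. All 37 were higher in both mice, and 35 were over 2-fold higher in both, but Phf11d and Ifi44 rest on few cells. Over all 7573 genes compared in the same way, 21.3% were higher in both mice and 4.98% over 2-fold higher in both. The median gene was at -0.18. The median member was 2.36 higher. These are the genes by which the cells were clustered, and nothing is read from these counts.

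The IFIT genes encode proteins that bind foreign or unmodified RNA, and they were among the genes with the widest gap. Ifit1 had 1172 and 1317 CPM in mice 2 and 3 in subcluster 15 and 86.4 and 74.6 CPM in subclusters 1, 7 and 10. Ifit3, a partner of Ifit1, had 1929.6 and 2326 CPM against 146 and 139 CPM. The next highest subcluster of all 16 had 90.1 CPM of Ifit1 (subcluster 4) and 161 CPM of Ifit3 (subcluster 1). No mouse of any other subcluster came near these levels of subcluster 15. In the 9 cells of mouse 1 the values were 683 and 1239 CPM, which are lower than in the other mice but still above every other subcluster.

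Rsad2 (viperin), which makes an antiviral nucleotide, showed the widest difference of the set. Its levels were 469 and 492 CPM in subcluster 15 and 17.7 and 12.6 CPM in subclusters 1, 7 and 10, a difference of 4.91 ± 0.37 (log2, SD, n = 2). Cmpk2, a nucleotide kinase gene beside Rsad2 on chromosome 12, differed by 4.73 ± 0.33, and Oasl1, of the 2′-5′ oligoadenylate synthetase-like genes, by 4.35 ± 0.85. With every cell thinned to 7537 UMIs, Rsad2 had a UMI in 24 of 28 cells of subcluster 15 (85.7%, exact 95% interval 67.3 to 96.0%), against 49 of 553 in subcluster 1 (8.86%, 6.63 to 11.6%). Without thinning the shares were 93.2% and 9.68%. Subcluster 2, which is the second highest for Rsad2, had 172 of 696 cells (24.7%, 21.6 to 28.1%), so Rsad2 was found in most cells of subcluster 15 and in no larger share than that in any other.

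Isg15, a ubiquitin-like protein that is joined to other proteins during the response, had 2549.8 and 2575 CPM in subcluster 15 and 197 and 165 CPM in subclusters 1, 7 and 10. All 44 cells had an Isg15 UMI. Mx1, a dynamin-like GTPase that blocks viral particles, had 372 and 457 against 27.5 and 29.4 CPM. Isg20, an exonuclease that degrades RNA, had 675 and 552 against 53.5 and 58.7 CPM. The next highest subcluster had 90.2 CPM of Isg20 (subcluster 4) and 58.3 CPM of Mx1 (subcluster 2), so both genes set subcluster 15 apart from all other cells.

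The OAS genes encode enzymes that sense double-stranded RNA, and the family was led by different cells. Oasl1, Oas3 and Oas2 were highest in subcluster 15 (Oas2 by a margin of 28.1 against 27.8 CPM in subcluster 2), and Oasl2 and Oas1a were highest in subcluster 2. Oasl2 had 103 and 47.5 CPM in mice 2 and 3 in subcluster 15 and 171 CPM in mouse 1. In subcluster 2 it had 171, 172 and 125 CPM and in subcluster 4 151, 125 and 125 CPM. In subcluster 1 it had 18.5, 12.5 and 7.38 CPM. The macrophage-like and cDC2-like cells were thus at or above subcluster 15 for Oasl2 in mice 2 and 3, and all of these were above subcluster 1. Oas2 had 12 UMIs in the 44 cells of subcluster 15, so its level there is imprecise.

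The RNA sensors RIG-I (Ddx58) and MDA5 (Ifih1) and their regulator LGP2 (Dhx58) were all highest in subcluster 15. Ifih1 had 221 and 291 CPM there and 25.05 and 21.5 CPM in subclusters 1, 7 and 10. Ddx58 had 221 and 279 against 46.2 and 63.8 CPM. Dhx58 had 145 and 88.99 against 33.4 and 20.5 CPM. The sensor of Z-form nucleic acid, Zbp1, had 827 and 884 against 214 and 191 CPM and a UMI in all 44 cells.

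Among the factors that carry the signal, Irf7, which amplifies interferon production, had 544 and 575 CPM in subcluster 15 and 122 and 120.5 CPM in subclusters 1, 7 and 10. The pDC-like subcluster 0 came next for Irf7, with 461, 424 and 334 CPM. Stat2 and Irf9 are partners in the complex that binds the response element. Irf9 had 117 and 131 against 64.3 and 82.9 CPM, the smallest difference of the 37 at 0.75 ± 0.15. Stat2 had 152 and 113 against 22.6 and 27.1 CPM, a level that the pDC-like subclusters also reached (144, 156 and 119 CPM in subcluster 9).

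Usp18, which removes ISG15 from proteins and restrains the receptor, had 379 and 492 against 27.5 and 20.6 CPM. Rtp4, a receptor transporter protein gene, had 427 and 463 against 131 and 119 CPM. Ifi27l2a had 2219 and 3239 against 1738 and 1193 CPM, with 2806, 2624 and 2699.7 CPM in subcluster 2. Ifi27l2a was therefore common in T-like and macrophage-like cells alike and set subcluster 15 apart the least after Irf9.

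Other pathway genes, which are no members, moved unevenly. Of the 18 ligand genes listed, Ifng (interferon gamma) is the one with a row in the matrix, and the type I ligands were not analysed here. The receptor genes differed little, with Ifnar1 at 0.05 ± 0.08 and Ifnar2 at -0.24 ± 0.42 (log2, subcluster 15 minus 1, 7 and 10, SD, n = 2). Socs1, an inhibitor of the JAK kinases that the pathway induces, differed by 1.79 ± 0.14. Cxcl10, a chemokine that attracts activated T cells, differed by 6.33 ± 0.76, but 3 cells held 252 of its 422 UMIs. In the T-gate cells alone Cxcl10 was at 895 CPM against 11.5 CPM in subclusters 1, 7 and 10. Iigp1 and Gbp2, GTPase genes that interferon gamma induces, differed by 3.63 ± 0.30 and 2.54 ± 0.24. Ifng itself differed by 1.21 ± 0.35. Jaml had 597 CPM in the 44 cells and 204 CPM in subclusters 1, 7 and 10.

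Single cells at the level of subcluster 15 were found in other subclusters, most often in the macrophage-like subcluster 2. A cell's score is the UMIs of the members per 10000 of its UMIs. Because Bst2 and Ifi27l2a alone can fill it, the score is given without them here. The bound is the 25th percentile of subcluster 15 (116 per 10000), and it is a range of a score and no cell type. At or above it were 87 of the 5924 other cells (1.47%, exact 95% interval 1.18 to 1.81%), and 69 more lay within 20% under it. Subcluster 2 held 39 of the 87 (5.45% of its 715 cells), subcluster 4 held 20 (3.82%) and subcluster 0 held 16 (1.72%). In subclusters 1, 7 and 10 there were 6 of 1265 (0.474%, 0.174 to 1.03%), and in subclusters 5, 8 and 14 there were 0 (upper 95% limits 0.824, 1.12 and 4.51%). With Bst2 and Ifi27l2a in the score, the bound was 154 and 142 cells passed it (2.40%). Without the pair, the median cell had 162 UMIs per 10000 in subcluster 15, 33.8 in subcluster 2 and 17.4 in subcluster 1.

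**Figure D3:**
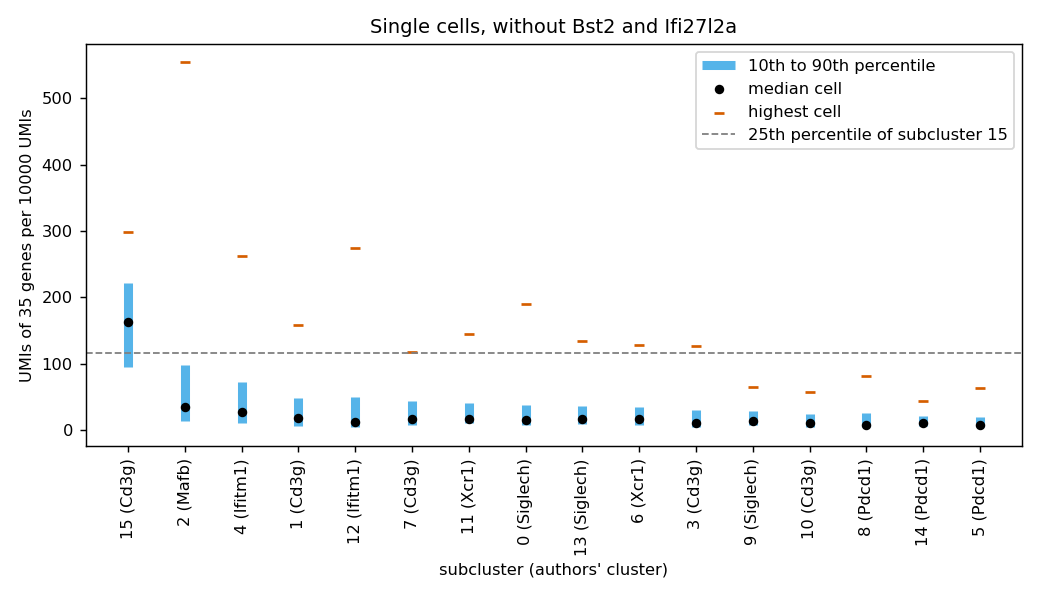
UMIs of 35 of the genes (without Bst2 and Ifi27l2a) per 10000 UMIs in single cells of each subcluster, with the median, the 10th to 90th percentile and the highest cell. The dashed line is the 25th percentile of subcluster 15 (116), which the highest cell of subcluster 2 (555) passes and no cell of subclusters 5, 8 and 14 reaches.

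The cells of subcluster 15 lay closest to each other and to T-like cells. Of their 20 nearest cells, 58.5% were in subcluster 15 and 18.5% in subcluster 1 when all variable genes were used. After the members and the pathway list were left out, 36.1% were in subcluster 15, 28.1% in subcluster 1 and 15.8% in subcluster 7. The cluster is thus less separate without these genes. Other genes with levels like the members were not left out. Ifi209 had 701 CPM in subcluster 15 (mean of mice 2 and 3) against 144 CPM in subclusters 1, 7 and 10, and Daxx 380 against 47.8 CPM. The labels were also built with the members, so the 36.1% cannot tell whether the cells lie apart without interferon-stimulated genes. The genes outside the list whose levels over 46 mouse and subcluster sums were most like the mean of the members were Ifi209 (Pearson r = 0.92), Irgm1 (0.88), Daxx (0.87), Samhd1 (0.87), Rnf213 (0.86), Trafd1 (0.83), Znfx1 (0.83), N4bp1 (0.81), Irgm2 (0.81) and Psmb10 (0.80). These sums share mice, a library and clusters, so r is a description. Within the list, r ran from 0.94 for Isg15 and Rsad2 down to 0.52 for Stat2, 0.46 for Ddx58 and Ifi44, and 0.29 for Bst2. Without the sums of subcluster 15 the lowest were Bst2 (0.23), Ddx58 (0.27), Samd9l (0.38) and Ifi44 (0.42), with Stat2 at 0.48.

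On the Pdcd1 side of the CD8 T-like cells, the set was lower than in the pooled cells of subclusters 1, 7 and 10. Of these 1265 cells, 785 were in subcluster 1 and 351 in subcluster 7. Subcluster 10 was itself low, with a level of the set of 4.66, 4.81 and 4.47 in mice 1 to 3. In mice 1 and 2 it was above subclusters 5, 8 and 14. In mouse 3 it was above subcluster 5 (3.92) and below subclusters 8 and 14 (4.79 and 4.67). Subclusters 5, 8 and 14 together differed from subclusters 1, 7 and 10 by a mean of -1.02 ± 0.24 (log2, SD, n = 3), with -0.89, -1.29 and -0.88 in mice 1 to 3. In all 3 mice 33 of the 37 were lower, and 12 were more than 2-fold lower in each, while 0 were over 2-fold higher. Over all 8352 genes compared, 30.7% were lower in all 3 mice, 4.50% were over 2-fold lower in each and 7.93% over 2-fold higher. Nothing is read from these counts, since the clusters used these genes. Ifit3 had 10.9, 9.62 and 24.6 CPM in mice 1 to 3 on the Pdcd1 side and 91.8, 146 and 139 CPM on the other, a difference of -3.07 ± 0.68. Ifit3b and Ifit1 followed with -2.57 ± 1.20 and -2.38 ± 0.62. The smallest differences were in Eif2ak2, the gene of the RNA-activated kinase PKR, with 0.12 ± 0.27, and Phf11b with -0.15 ± 0.27. The receptor gene Ifnar1 differed by -0.82 ± 0.34, while Ifng differed by 1.75 ± 1.25. Subclusters 5 and 8 had a median of 21106.5 and 27482 UMIs per cell, against 8550 and 8829 in subclusters 1 and 7. With cells thinned to equal depth the mean difference was -0.88.

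The cDC2-like subcluster 4, for which no gate was made, stood above subclusters 1, 7 and 10 by a mean of 1.01 ± 0.26 (log2, SD, n = 3). Over 2-fold higher in each mouse were 15 of the 37, against 15.1% of 8437 genes. Oasl2, Phf11d and Oas2 led with 3.45 ± 0.47, 3.16 ± 0.18 and 3.06 ± 1.20, the same genes as in subcluster 2, where they had 3.67 ± 0.26, 3.33 ± 0.30 and 3.54 ± 1.13. In subcluster 2 the mean difference was 1.25 ± 0.26, and 20 members were over 2-fold higher in each mouse (18.1% of all genes). In neither subcluster was a member over 2-fold lower in each mouse (13.3% of all genes in subcluster 4 and 15.1% in subcluster 2). The subclusters of the Siglech cluster, 0 and 9 together with the unnamed 13, were split. Their mean was -0.25 ± 0.40, with 0.17, -0.29 and -0.63 in mice 1 to 3. Of the members 8 were over 2-fold higher in each mouse (17.3% of all genes) and 10 over 2-fold lower (9.47%), from Bst2 at 3.95 ± 0.29 to Ifit3 at -4.13 ± 1.27. Subcluster 3, with NK and Cd3 genes, was lower by mean, at -0.55 ± 0.41, with 7 members over 2-fold lower in each mouse (1.39% of all genes) and 1 over 2-fold higher (2.63%). Ifi27l2a differed most there, with -2.34 ± 0.54. All of these share the T-like cells of subclusters 1, 7 and 10.

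To compare cell types without the clusters, cells were gated by transcripts that are no members. A gate asked for at least 3 UMIs of its genes and at least 5 times those of each other gate: Siglech and Ccr9 for pDC, Xcr1 and Clec9a for cDC1, C1qa, C1qb and C1qc for macrophages, Ncr1 and Klrb1c for NK cells, Cd3d, Cd3e and Cd3g for T cells. CD8 T cells were T cells with Cd8a or Cd8b1 and no Cd4. They numbered 2171, against 1267 pDC, 371 cDC1, 280 macrophage and 84 NK gate cells, with median UMIs from 11124 in CD8 T cells to 27667 in cDC1. UMIs were summed per mouse, and edgeR's quasi-likelihood test was run over 10868 genes with the mouse as a block. All 37 members passed the filter on low counts. Differences are log2 fold changes with their standard error. The comparisons share the CD8 T or cDC1 sums, so they are not independent of each other. The CD8 T gate spans both sides of the T-like cells, with 359 of 505 cells with a Jaml UMI in mouse 1 in the Pdcd1 cluster and 97 of 780 in mouse 3. Its Ifit3 was 27.4, 81.4 and 138 CPM in mice 1 to 3.

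Macrophage gate cells carried more of the set than CD8 T cells. Of the 37 members 30 were higher and 0 lower, against 29.8% of all genes tested higher and 31.6% lower. At an unadjusted p under 0.05, 0 were lower in edgeR and 0 in DESeq2, and all 37 had a positive fold change, with a median of 1.35 against -0.07 over all genes. The widest gap was in Oasl2, with 176, 160.2 and 124 CPM in the 3 macrophage sums and 7.67, 12.97 and 11.6 CPM in the CD8 T sums. It was higher by 3.95 ± 0.22 (adjusted p = 1.1e-10). Oas2 was higher by 3.78 ± 0.33 (adjusted p = 3.6e-08) and Ifi44, an interferon-induced gene of little known function, by 3.74 ± 0.47 (adjusted p = 2.8e-06). For all 3 genes the macrophage and CD8 T sums did not overlap. Ifit3, with 172, 153 and 111 against 27.4, 81.4 and 138 CPM, came nearest to the threshold without passing it (0.97 ± 0.45, adjusted p = 0.073), and its sums overlapped. It passed without mouse 3 (1.83, adjusted p = 0.001) and without subcluster 15 (1.41, adjusted p = 0.012).

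Against cDC1, another myeloid type, macrophages were also higher. Here 28 members were higher and 1 lower, against 21.1% and 20.5% of all genes, with a median of 1.47. Ifit3 had 172, 153 and 111 CPM in macrophages and 5.05, 4.63 and 1.91 CPM in cDC1, a difference of 5.23 ± 0.65 (adjusted p = 5.3e-06). Rtp4 was higher by 4.97 ± 0.43 (adjusted p = 7.5e-08) and Ifit3b by 4.79 ± 0.78 (adjusted p = 9.8e-05). Phf11b was the 1 lower gene, with 198, 195 and 152 against 292, 239 and 239.7 CPM (-0.52 ± 0.14, adjusted p = 0.0052). Genes that interferon gamma also induces followed in part, with Cxcl9, Cxcl10, Cd274 and Gbp2 higher and Ciita lower of the 6 tested.

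In plasmacytoid cells, single members differed widely in both directions. Against CD8 T cells 10 members were higher and 13 lower, against 30.1% and 31.1% of all genes, so the number of calls was close to that of genes in general. Ifi44 had 61.1, 60.3 and 46.1 CPM in pDC and 0.639, 1.37 and 2.80 CPM in CD8 T cells, a difference of 5.08 ± 0.40 (adjusted p = 8.8e-09). Bst2 had 5168, 4827 and 5153 against 189.5, 269 and 299.6 CPM (4.26 ± 0.18, adjusted p = 4e-12). Stat2 was higher by 2.58 ± 0.21 (adjusted p = 1.3e-08). In each of these the groups stood clearly apart in all 3 mice.

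In the other direction, Ddx58 had 5.22, 3.25 and 3.81 CPM in pDC and 32.9, 34.95 and 62.5 CPM in CD8 T cells (-3.39 ± 0.29, adjusted p = 2.2e-08). Rtp4 had 11.6, 4.69 and 5.14 against 42.8, 64.7 and 107 CPM (-3.24 ± 0.39, adjusted p = 1.7e-06). Ifit3b differed by -3.08 ± 0.58 (adjusted p = 0.0002). The RIG-I gene and Ifit1, Ifit3 and Ifit3b were thus lower in pDC, while the receptor genes Ifnar1 and Ifnar2 were higher there by 1.61 ± 0.15 and 2.33 ± 0.22 (adjusted p = 9.1e-08 and 8.2e-08) and the RNA sensor gene Tlr7 by 6.10 ± 0.17 (adjusted p = 3.3e-14). Without mouse 3, 8 members were lower in place of 13.

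Between the cDC1 gate and CD8 T cells 13 members were higher and 12 lower, near the 25.3% and 28.8% of all genes, so these counts are no result about the set. Ifit3 had 5.05, 4.63 and 1.91 CPM in cDC1 and 27.4, 81.4 and 138 CPM in CD8 T cells (-4.26 ± 0.65, adjusted p = 3.2e-05). Ifit3b and Ifit1 were lower too, with -4.11 ± 0.77 and -3.67 ± 0.69 (adjusted p = 0.00023 and 0.00025). Ifi44, Stat2 and Phf11d were higher by 3.16 ± 0.46, 2.22 ± 0.21 and 2.18 ± 0.27 (adjusted p = 1.9e-05, 1.4e-07 and 2.9e-06). For all 6 genes the cDC1 and CD8 T sums did not overlap. Against each other, pDC and cDC1 differed in 7 members each way, against 27.9% of all genes higher in pDC and 27.0% lower. Bst2 was higher in pDC by 3.52 ± 0.18 (adjusted p = 6e-11), Oasl2 by 2.08 ± 0.24 (adjusted p = 1.5e-06) and Ifit1 by 1.94 ± 0.77 (adjusted p = 0.041). Phf11d, Phf11b and Zbp1 were higher in cDC1, with differences of -2.37 ± 0.29, -1.67 ± 0.14 and -1.66 ± 0.20 (adjusted p = 2.6e-06, 2.3e-08 and 3e-06). Without mouse 2, 4 members were higher in pDC in place of 7, and Ifit1 had an adjusted p of 0.092.

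**Figure D4:**
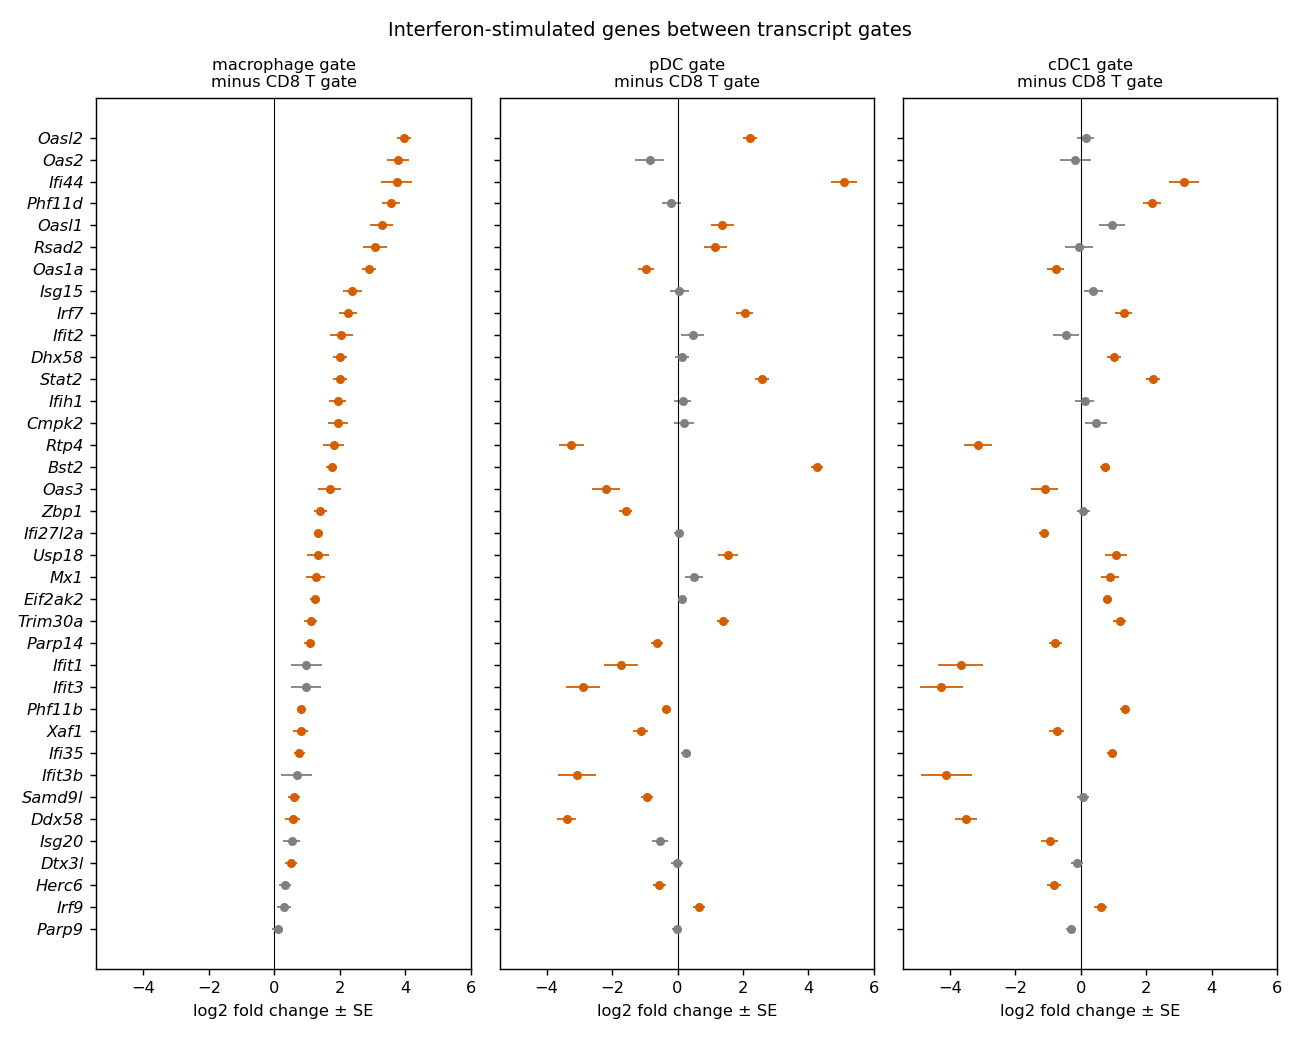
Log2 fold change with its standard error for each of the 37 genes between the macrophage, pDC and cDC1 gates and the CD8 T gate, in 3 mice. Orange points passed an adjusted p of 0.05 and grey points did not. In the macrophage panel all 37 lie above 0, while the pDC and cDC1 panels spread to both sides, with Ifit3 at -2.88 and -4.26.

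NK gate cells numbered 84, with 14 in mouse 2. Against CD8 T cells, 1 of the 37 members was higher and 2 were lower, near the 3.26% and 4.52% of all genes, so the counts say nothing about the set. Of the 37, 28 had a negative fold change (median -0.32), as did 34 without mouse 1 (14 of them lower at an unadjusted p under 0.05), while 25 were positive without mouse 3. Ifi27l2a had 161, 88.6 and 97.8 CPM in NK sums and 982, 1279 and 1195 CPM in CD8 T sums (-3.34 ± 0.19, adjusted p = 3.2e-09). Phf11b was lower, with -0.86 ± 0.19 (adjusted p = 0.0096), a call that was lost without mouse 1 (adjusted p = 0.091) and without mouse 3 (0.052). Ifi44 was higher by 3.63 ± 0.73 (adjusted p = 0.0047), with 33.00, 20.8 and 3.49 against 0.639, 1.37 and 2.80 CPM, and was not called without mouse 1 (2.13, adjusted p = 0.34). Oasl1 came nearest among the others (1.49 ± 0.69, adjusted p = 0.23). Without mouse 1 no member was higher, and without mouse 3 Ifi27l2a was the 1 lower member.

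Among CD8 T gate cells, those with a Jaml UMI carried more of the set than those without. All of these cells came through the sort for CD45 and JAML. The split is therefore by detected Jaml RNA and does not compare cells with and without JAML protein. Each mouse gave as many cells with as without a Jaml UMI within each of 10 equal-sized classes of total UMIs, 610 of each in all. Jaml itself is no member, but it was not removed from the genes tested, so the shares of all genes include it. Of the 35 members tested (Oas2 and Ifi44 fell under the filter), 17 were higher and 0 lower, against 0.995% and 0.210% of all genes. All 35 had a positive fold change in edgeR and in DESeq2, so 0 were lower at any p, with a median of 0.72 against -0.00 over all genes. Isg15 had 84.6, 230.3 and 244 CPM in mice 1 to 3 in cells with a Jaml UMI and 44.6, 140.5 and 81.9 CPM in cells without, a difference of 1.07 ± 0.12 (adjusted p = 0.00073). Ifit3 had 27.6, 124 and 192 against 19.5, 32.99 and 70.6 CPM (1.30 ± 0.17, adjusted p = 0.0019). Irf7 had 63.6, 98.5 and 151 against 32.9, 52.3 and 78.4 CPM (0.92 ± 0.09, adjusted p = 0.00028). For all 3 genes each mouse was higher with Jaml than without, while the values of the 3 mice overlapped between the kinds of cell, so the call rests on the difference within each mouse.

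The 3 members with the widest differences past the threshold were Rsad2 (1.71 ± 0.37, adjusted p = 0.044), Ifit3b (1.59 ± 0.22, adjusted p = 0.0025) and Ifit3. Parp14, an ADP-ribosyltransferase gene, came nearest without passing (0.44 ± 0.10, adjusted p = 0.058). Before matching, the gate held 19 cells of the macrophage-like subcluster 2 and 19 of the cDC2-like subcluster 4. Genes of other cells moved with the split: Cd209a was higher by 3.13 ± 0.36 (adjusted p = 0.00073) and Lyz2 by 0.87 ± 0.10 (adjusted p = 0.0006). H2-Ab1 and Spi1 were higher by 1.19 ± 0.13 and 1.39 ± 0.19 (adjusted p = 0.00056 and 0.0019). Of the macrophage list of 6 none was called, and of the cDC2 list 2 of 5 were higher (Cd209a and Mgl2), with summed levels of 66.3, 349 and 80.0 CPM with Jaml against 35.3, 75.6 and 33.1 CPM without. Their part in the result was not tested in these cells. Subcluster 15 gave 15 of the 610 cells with and 2 of those without.

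The same split was repeated in parts of the gate, and the first 3 of these were chosen after the data were seen. Within the Cd3g cluster (372 cells of each kind), 15 of 30 members tested were higher, against 1.10% of all genes. In mouse 1, with 49 cells of each kind, 8 of these 15 were lower with Jaml, and in mice 2 and 3 none was. Ifit3 had 83.6, 277 and 199 CPM with and 122, 93.96 and 93.4 CPM without in mice 1 to 3, so the calls rest on mice 2 and 3. There the macrophage list was at 27.2, 17.97 and 20.8 CPM with Jaml and 22.1, 19.9 and 21.4 CPM without, and no cDC2 gene was called. The memory genes Tcf7 and Ccr7 were lower there with Jaml and Pdcd1 and Ly6c2 higher, and their part in the result was not tested. Within the Pdcd1 cluster (226 of each), 3 of 26 were higher (Isg15, Irf7 and Trim30a), against 0.697%, and all 4 genes of dividing cells were higher too. With cells matched within each subcluster (599 of each), 10 of 34 were higher, against 0.486%, with Isg15 at 0.94 ± 0.09 (adjusted p = 1.6e-06). Without subcluster 15, 13 of 35 were higher, against 1.01%, and the myeloid genes Cd209a (3.14 ± 0.22, adjusted p = 6.3e-06), H2-Ab1 and Spi1 (1.41 ± 0.11 and 1.63 ± 0.26, adjusted p = 1.2e-05 and 0.006) were higher as well. Their part in the result was not tested. DESeq2 called 6 of the 35. Without the mouse as a block edgeR called 0 (10 at an unadjusted p under 0.05), and 1 gene of all tested. Without mouse 3 the count was 9, and Rsad2 was not called without mouse 1 or mouse 3 (adjusted p = 0.13 and 0.69), nor Ifit3b without mouse 3 (0.094). Neither was called without subcluster 15 (0.13 and 0.14), and DESeq2 called none of Rsad2, Ifit3b and Ifit3 (0.57, 0.061 and 0.16).

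**Figure D5:**
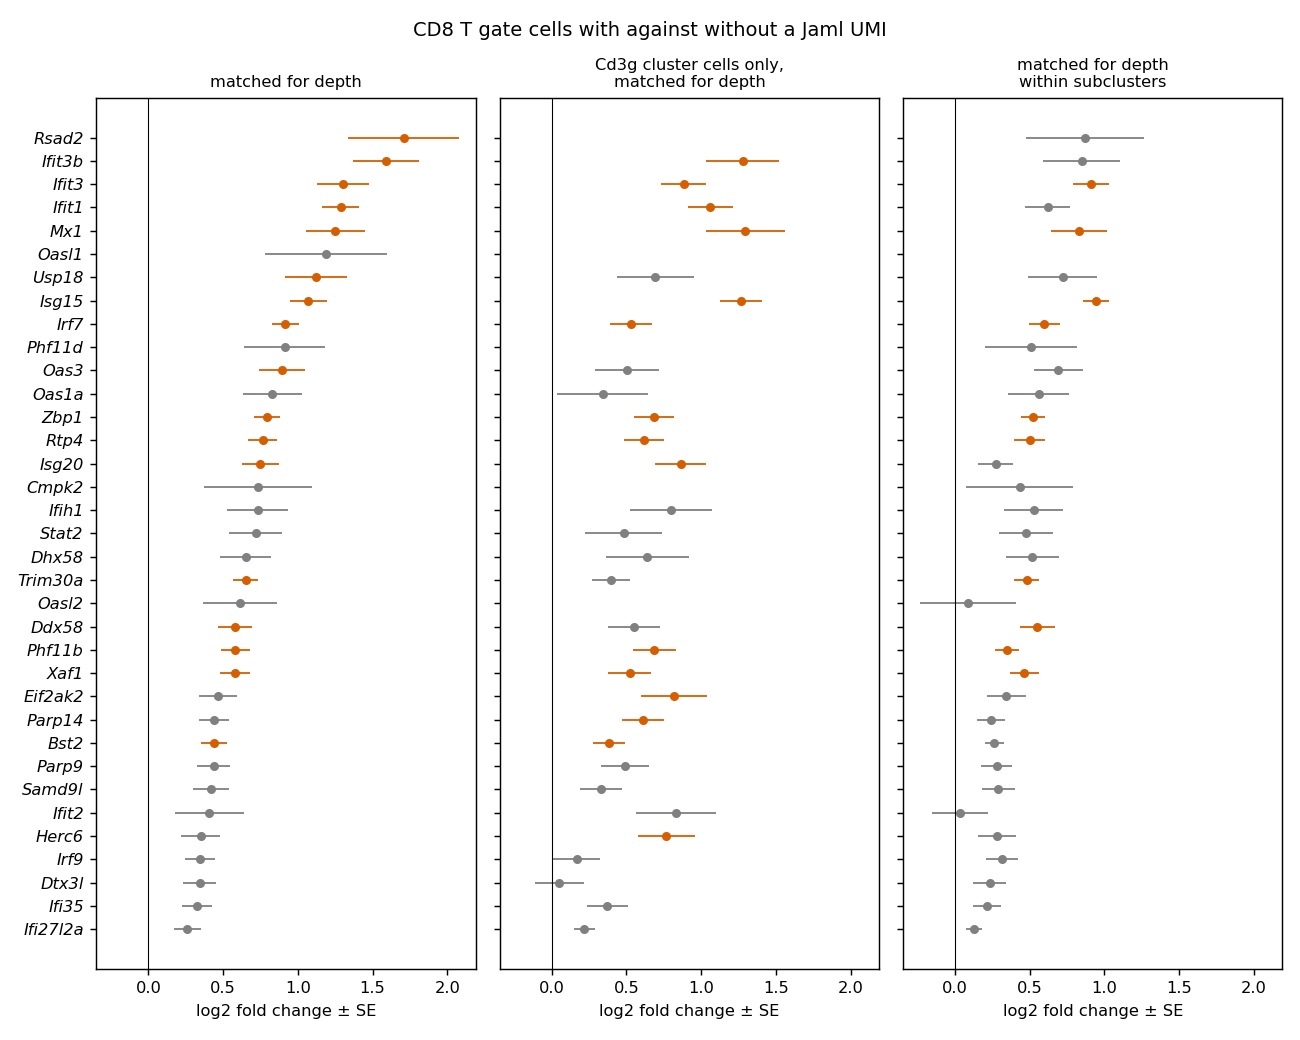
Log2 fold change with its standard error for each gene between CD8 T gate cells with and without a Jaml UMI, in 3 mice, with cells matched for depth (left), in the Cd3g cluster alone (middle) and matched within subclusters (right). Orange points passed an adjusted p of 0.05 and grey points did not, and 17, 15 and 10 genes are orange.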

How the data were processed

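The authors deposited 1 matrix of UMI counts (15416 genes by 5976 cells) with an annotation of hashtags and clusters. Per the submitters' processing notes the tools include Cell Ranger 3.1.0 and Seurat 3.1.5 and the genome build mm10, with roles not stated there. The authors' deposited annotation gives the percent of mitochondrial UMIs per cell, which was not used in a test, and clusters at resolution 0.8, which were taken as they are. Doublets were not called here, and stray RNA was not removed.

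The members and gene lists were chosen with earlier results of these data known. UMIs were summed per mouse and subcluster (at least 10 cells) as CPM, and per mouse and gate for edgeR 4.0.16 (R 4.3.3), with TMM scaling, a low-count filter, the mouse as a block and Benjamini-Hochberg adjustment over all genes tested, at 0.05. The block is the animal, since cells of several types came from each mouse. The test was also tried on simulated counts, and no result of that trial is used here. DESeq2 1.42.0, other scaling, gates, depth and mice left out were alternatives. Named genes are the 3 widest calls each way, the nearest miss and members described by role. With the mouse as a block, p-values measure how the differences within a mouse vary over these 3 mice. All gates of 1 fit share the estimate of that spread. Intervals cover counting error only. Motifs were searched in the RefSeq promoter table (GRCm38.p6).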

Additional observations from a re-analysis of the deposited data

How the results depend on the processing

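Of the results that answer a comparison, 168 values under an alternative kept their side or stayed within the limits used, and 20 moved. Of the values for single genes, 362 kept their side of the threshold, 19 fell out and 8 came in, and none reversed. The cause was not tested for any of these. Leaving out each mouse in turn gave 7 to 15 members higher and 8 to 16 lower for pDC against CD8 T cells, 10 to 17 and 8 to 13 for cDC1, 26 to 36 and 0 for macrophages, and 0 to 1 and 1 to 3 for NK cells. It gave 4 to 9 and 7 to 8 for pDC against cDC1, 24 to 28 and 1 for macrophages against cDC1, and 9 to 15 higher for the Jaml split. The level differences ran from 2.64 to 2.79 for subcluster 15 and from -1.09 to -0.88 for subclusters 5, 8 and 14. For subclusters 0, 9 and 13 together they ran from -0.46 to -0.06 (-0.25 with all mice).

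At an adjusted p under 0.01, 4 members were higher in pDC than in cDC1 and 11 with a Jaml UMI. For the Jaml split, DESeq2 gave 6, the Pdcd1 cluster alone 3, matching within subclusters 10 and the fit without the replicate block 0. Without the block the other comparisons gave 10 higher and 13 lower, 13 and 12, 29 and 0, 1 and 2, 7 and 7, and 29 and 1, in the order above, so the pairing by mouse moved only the Jaml count by over 1.5 times. The difference of subcluster 15 was 2.38 with a pseudocount of 10, 2.59 at equal depth and 2.35 as a median. That of subclusters 5, 8 and 14 was -0.71 with a pseudocount of 10. The share of other cells at the level of subcluster 15 was 2.40% with all members scored and 0.878% with the median of subcluster 15 as the bound. Without Bst2 and Ifi27l2a it was 1.47%, and 0.557% with the median as the bound. With 50 neighbours, 40.2% were in subcluster 15 with all genes and 23.7% without the members and pathway list. The longer motif left 8 members. The 84 NK gate cells and the 44 cells of subcluster 15 limit the precision of those comparisons.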
